A study of Mus with 12 samples.

Results

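The antiviral effector genes described here are 37 genes that cells switch on in response to type I interferon, out of 27294 genes measured by RNA sequencing. They were picked by gene symbol and comprise IFIT, OAS and MX genes, the ISG15 system, RNA and nucleic acid sensors, PARP genes and further antiviral factors. Guanylate-binding proteins, immunity-related GTPases, TRIM genes, and IRF and STAT genes were left out by the same choice. The rule itself uses no measured value, but the list was chosen with earlier results of these data known. Counts over the 37 genes therefore describe this list only. All 37 genes passed the filter on low counts.

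The cells were mouse primary peritoneal macrophages, the phagocytes of the abdominal cavity, with 12 libraries in 4 groups of 3. The groups were KO cells with oxLDL, untreated KO cells, WT cells with oxLDL and untreated WT cells. oxLDL is oxidised low-density lipoprotein, a modified cholesterol carrier that macrophages take up in atherosclerotic plaques. The series asks how macrophage WEE1, a cell cycle kinase, acts in inflammation and atherosclerosis. The labels write the genotype as KO without naming a gene or an allele, so a WEE1 knockout is read from the series title alone. Strain, age and sex of the mice, any Cre driver, and the dose and duration of oxLDL are also unstated in the sources used here. Library names carry LDL where the treatment label has oxLDL, and the extraction text speaks of an adipose sample although the source is macrophages. Untreated means that no treatment is labelled. No label ties the 3 libraries of a group to different animals or cultures. The p-values therefore reflect only how these libraries vary, which may be technical.

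Type I interferons bind a receptor made of Ifnar1 and Ifnar2, whose kinases Jak1 and Tyk2 phosphorylate STAT proteins, among them Stat2. Together with Irf9, Stat2 acts at the interferon-stimulated response element in front of antiviral genes. Macrophages sense viral and stray nucleic acids, make interferon and answer it themselves, and even unstimulated macrophages hold a tonic level of many of these genes. Interferon-gamma raises some of the same genes.

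The libraries held 53588814 to 76809931 counts, with replicate 2 the shallowest in both WT groups. Wee1 itself had 1.30, 1.60 and 1.25 FPKM (fragments scaled to transcript length and library size) in KO cells with oxLDL, against 1.44, 1.78 and 1.63 FPKM in WT cells with oxLDL. Untreated KO cells had 1.63, 1.60 and 1.22 FPKM of Wee1, against 3.09, 3.25 and 2.80 FPKM in untreated WT cells. Wee1 thus overlapped between KO and WT cells with oxLDL and was separate when untreated. The fitted log2 difference, KO over WT, was -0.53 ± 0.14 with oxLDL (SE; adjusted p = 0.00587) and -0.93 ± 0.14 untreated (adjusted p = 0.000139). With library totals alone the difference with oxLDL was -0.23 and not called (adjusted p = 0.190). Wee1 RNA was thus present in the libraries labelled KO, and the files do not show which part of the gene, if any, was deleted. The 7 general macrophage markers Adgre1, Csf1r, Cd68, Lyz2, Itgam, Mertk and Fcgr1 were detected in every library and summed to 10637 to 21385 FPKM, most of it Lyz2. Fcgr1 was the lowest of them in KO cells, at 8.96 to 9.45 FPKM with oxLDL and 9.22 to 9.43 FPKM untreated, against 122 to 137 FPKM in WT cells with oxLDL and 39.4 to 41.7 FPKM in untreated WT cells. The 4 markers of large resident peritoneal macrophages, Gata6, Icam2, Timd4 and Cxcl13, summed to 9.81 to 10.03 FPKM in KO cells with oxLDL, 9.84 to 12.9 FPKM in untreated KO cells, 19.3 to 23.4 FPKM in WT cells with oxLDL and 29.6 to 31.4 FPKM in untreated WT cells, most of it Cxcl13. Gata6, which defines these cells, was at 0.0608 to 0.278 FPKM over the 12 libraries. These 4 markers did not move together. With oxLDL, KO cells held 174% of the WT mean of Gata6 and 147% of Icam2, against 45.2% of Cxcl13 and 5.35% of Timd4. Untreated, KO cells held 79.9% of Gata6, 65.3% of Icam2, 35.6% of Cxcl13 and 0.858% of Timd4.

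The summed level of the 37 genes was 356 ± 15.4 FPKM in KO cells with oxLDL, 345 ± 6.77 FPKM in untreated KO cells, 7054 ± 408 FPKM in WT cells with oxLDL and 2136 ± 34.3 FPKM in untreated WT cells (SD, n = 3 each). Antiviral transcripts thus made up 2.38 to 2.61% of all FPKM in WT cells with oxLDL and 0.724 to 0.746% in untreated WT cells. In both KO groups that share stayed between 0.119 and 0.131%. Ifitm3 weighed most in the sum wherever the other genes were low, at 36.3 to 37.6% in KO cells with oxLDL and 37.4 to 38.3% in untreated KO cells, against 13.5 to 13.7% in WT cells with oxLDL and 28.2 to 29.7% in untreated WT cells. Without Ifitm3 the sum was 225 ± 9.96 FPKM in KO cells with oxLDL, 215 ± 3.84 FPKM in untreated KO cells, 6094 ± 352 FPKM in WT cells with oxLDL and 1514 ± 39.7 FPKM in untreated WT cells. In bulk libraries, fewer cells that make a transcript and less of it per cell cannot be told apart.

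**Figure D1:**
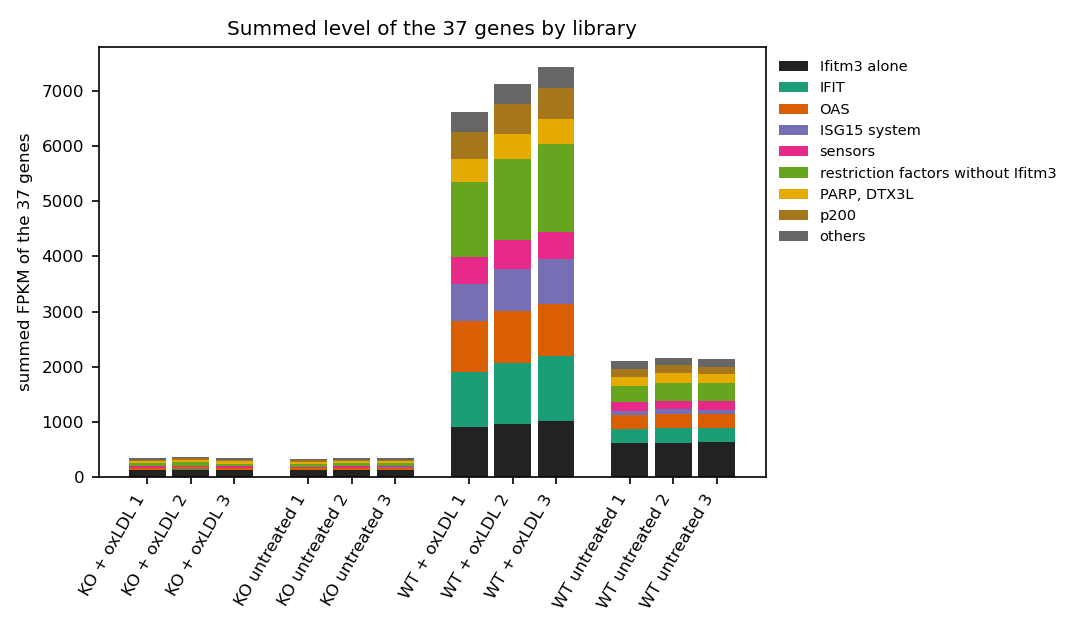
Summed FPKM of the 37 genes in each of the 12 libraries, stacked by role with Ifitm3 drawn apart. The 6 KO libraries lie between 337 and 374 FPKM, the 3 WT libraries with oxLDL between 6614 and 7420 FPKM and the 3 untreated WT libraries between 2099 and 2167 FPKM.

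Adding oxLDL to KO cells gave no called change in any of the 37 genes. edgeR's quasi-likelihood test, with p-values adjusted over all 17291 genes tested and a call at an adjusted p under 0.05, called 0 of 37 members. Over all genes it called 2, or 0.0116%, both higher, so there was little to be called anywhere in this comparison. At an unadjusted p under 0.05 the counts were 9 of 37 members and 1211 of 17291 genes, and DESeq2 called 110 genes, none of them a member. The members' median log2 change was 0.06, against -0.00 over all genes, and it ran from -0.16 for Herc6 to 0.87 for Ifi44. Of the 37 fitted changes, 27 were above 0 and 10 below. In 5 of 37 genes the 3 libraries of one KO group all lay beyond the other (TMM-scaled CPM), which happened in 13.4% of all genes tested. Those 5 were Ifit2, Oasl1, Rsad2 and Ifi44 above and Herc6 below.

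Adding oxLDL to WT cells raised every one of the 37. edgeR called 37 of 37 higher, where 23.9% of all genes were called higher and 51.2% were called in either direction. The members' median log2 change was 2.24, a 4.72-fold rise, against -0.06 over all genes. The smallest rise was 1.03 on the log2 scale, in Ifitm3, and the largest 4.88, in Isg20. In all 37 the 3 WT libraries with oxLDL lay above the 3 untreated ones. Groups without overlap, in either direction, were found for 58.6% of all genes. The TMM scaling factors differed between these groups, at 0.832 to 0.843 with oxLDL and 1.10 to 1.13 untreated. Scaled by library totals instead, the median over all genes was -0.46, the members' median log2 change was 1.83, and all 37 were still called higher. That scaling divided all genes called into 2222 higher and 8322 lower, against 4140 higher and 4708 lower with TMM.

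Without oxLDL, KO cells already held less of every member. edgeR called 37 of 37 lower in untreated KO than in untreated WT cells, where 16.2% of all genes were called lower and 31% in either direction. With library totals alone the genes called divided into 3849 lower and 1766 higher, against 2800 lower and 2559 higher with TMM. The median log2 difference was -2.85, against -0.01 over all genes, and it ran from -6.22 in Ifit2 to -0.84 in Tor3a. As a ratio of FPKM means, KO cells held 1.25 to 51.8% of the WT level, with a median of 12.9%.

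With oxLDL the distance was wider in all 37. edgeR called 37 of 37 lower in KO than in WT cells with oxLDL, where 27.4% of all genes were called lower and 57.9% in either direction. Library totals alone gave 3302 genes lower and 7538 higher, against 4730 lower and 5286 higher with TMM, and all 37 members remained lower. The median log2 difference was -5.03, against 0.05 over all genes, and it ran from -8.66 in Ifi44 to -2.56 in Tor3a. KO cells held 0.301 to 20.9% of the WT level, with a median of 3.77%. Both KO against WT comparisons had all 37 members with no overlap between groups, as was the case for 62.8% of all genes with oxLDL and 44.9% untreated. Even set against untreated WT cells, KO cells with oxLDL held 1.86 to 53.2% of each member, with a median of 13.4%.

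The difference between the 2 oxLDL changes, in KO minus in WT, was tested as an interaction. It was called below 0 for 37 of 37 members, where 19.6% of all genes were called below 0 and 41.7% in either direction. Library totals alone gave 1834 genes below 0 and 7174 above, against 3389 below and 3828 above with TMM. The median was -2.18 on the log2 scale, against 0.08 over all genes, and it ran from -4.76 in Isg20 to -0.75 in Bst2. The call for Bst2 was lost with library totals alone, at -0.33 (adjusted p = 0.171).

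**Figure D2:**
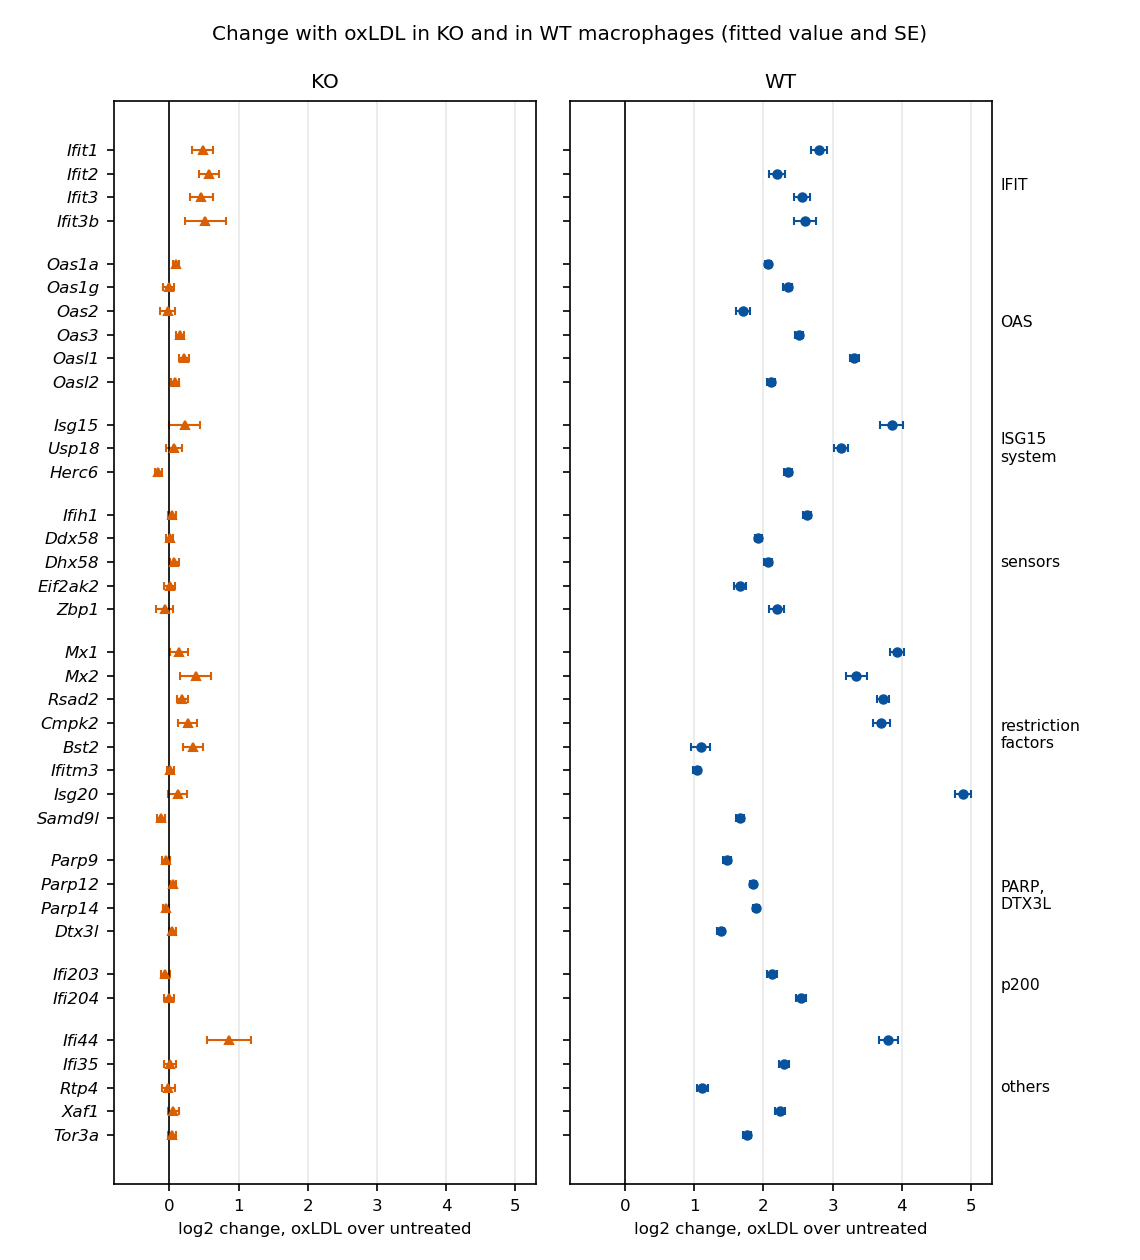
Fitted log2 change with oxLDL and its SE for each of the 37 genes, in KO cells (left panel) and in WT cells (right panel), on the same horizontal axis. The KO values lie between -0.16 and 0.87, with no gene called, and the WT values between 1.03 and 4.88.

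The IFIT genes, whose proteins bind viral RNA and hold back its translation, stood farthest below WT of any role group when untreated, with a median log2 difference of -5.66. Ifit2, which protects mice against several viruses that infect the brain, had 1.85, 2.76 and 2.31 FPKM in KO cells with oxLDL, 1.32, 1.47 and 1.86 FPKM in untreated KO cells, 383, 430 and 469 FPKM in WT cells with oxLDL and 123, 132 and 118 FPKM in untreated WT cells. Ifit1, which recognises RNA lacking a complete cap, had 1.31, 1.86 and 1.65 FPKM in KO cells with oxLDL, 0.946, 0.962 and 1.54 FPKM in untreated KO cells, 249, 266 and 276 FPKM in WT cells with oxLDL and 48.8, 52.5 and 49.7 FPKM in untreated WT cells. In both genes each step between the WT groups and down to KO was far larger than the spread within a group, and the 2 KO groups met or overlapped. The log2 difference KO over WT for Ifit2 was -7.83 ± 0.15 with oxLDL (adjusted p = 5.22e-15) and -6.22 ± 0.15 untreated (adjusted p = 2.24e-13). Ifit3, the binding partner that stabilises human IFIT1, averaged 1.77 ± 0.392 FPKM in KO cells with oxLDL, 1.28 ± 0.306 FPKM in untreated KO cells, 344 ± 24.5 FPKM in WT cells with oxLDL and 78.1 ± 5.56 FPKM in untreated WT cells (SD, n = 3 each). Ifit3b, a close copy of Ifit3, averaged 0.369 ± 0.0987 FPKM in KO cells with oxLDL, 0.254 ± 0.148 FPKM in untreated KO cells, 57.9 ± 5.19 FPKM in WT cells with oxLDL and 12.7 ± 0.9996 FPKM in untreated WT cells. How reads were shared between Ifit3 and Ifit3b is not stated, which makes each value alone uncertain.

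IFIT genes also had higher fitted values than most members when KO cells received oxLDL, although none was called. Ifit2 had a log2 change of 0.57 ± 0.14 (adjusted p = 0.279), the smallest adjusted p among the 37 genes in this comparison. Ifit1 had 0.48 ± 0.16 (adjusted p = 0.450) and Ifit3 had 0.46 ± 0.17 (adjusted p = 0.523). The highest untreated KO library of Ifit2, at 1.86 FPKM, lay level with the lowest oxLDL one, at 1.85 FPKM. In WT cells the same 4 genes rose by 2.19 to 2.80 on the log2 scale.

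OAS proteins sense double-stranded RNA and make short oligoadenylate chains that switch on RNase L, which cuts viral and cellular RNA. Oas1a, an active synthetase and the OAS gene with the highest mean level, had 13.0, 13.97 and 13.2 FPKM in KO cells with oxLDL, 12.4, 13.1 and 12.1 FPKM in untreated KO cells, 195, 206 and 209 FPKM in WT cells with oxLDL and 64.0, 65.8 and 62.9 FPKM in untreated WT cells. Oasl1, which has no synthetase activity and in mice holds back translation of Irf7, had 3.22, 3.001 and 2.80 FPKM in KO cells with oxLDL, 2.74, 2.64 and 2.41 FPKM in untreated KO cells, 191, 204 and 211 FPKM in WT cells with oxLDL and 26.1, 26.5 and 28.4 FPKM in untreated WT cells. Its 3 KO libraries with oxLDL lay just above the 3 untreated ones, a log2 change of 0.21 ± 0.07 that was not called (adjusted p = 0.454). In WT cells Oasl1 rose by 3.31 ± 0.06 on the log2 scale (adjusted p = 3.36e-14), more than any other OAS gene.

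The remaining OAS genes ran from 1.52 to 6.05 FPKM in KO cells with oxLDL, 1.53 to 5.46 FPKM in untreated KO cells, 72.5 to 199 FPKM in WT cells with oxLDL and 19.3 to 58.7 FPKM in untreated WT cells (group means). Oas1g and Oas2 had fitted KO changes with oxLDL below 0, against the direction of the other 4. Oas1g had 1.60, 1.48 and 1.49 FPKM in KO cells with oxLDL, 1.37, 1.66 and 1.56 FPKM in untreated KO cells, 69.8, 77.0 and 75.5 FPKM in WT cells with oxLDL and 19.1, 19.9 and 18.9 FPKM in untreated WT cells. Oas2 had 2.39, 3.15 and 3.28 FPKM in KO cells with oxLDL, 2.93, 2.55 and 3.48 FPKM in untreated KO cells, 74.7, 71.8 and 71.1 FPKM in WT cells with oxLDL and 28.5, 29.3 and 30.8 FPKM in untreated WT cells. For both genes the 2 KO groups overlapped.

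The balance between neighbouring OAS genes differed with genotype and treatment. Oas1a stood at 8.16 to 9.46 times the FPKM of Oas1g in KO cells with oxLDL and 7.76 to 9.01 times in untreated KO cells, against 2.67 to 2.79 times in WT cells with oxLDL and 3.30 to 3.36 times in untreated WT cells. Oasl2, which unlike Oasl1 makes oligoadenylates, stood at 0.913 to 0.978 times Oasl1 in WT cells with oxLDL, against 2.07 to 2.24 times in untreated WT cells. In KO cells that ratio was 1.11 to 1.52 with oxLDL and 1.30 to 1.57 untreated, and these 2 ranges overlapped. These are unequal levels between related sequences, and how shared reads were counted is not stated.

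Isg15 is a ubiquitin-like protein that is joined to other proteins or secreted. It had 3.08, 2.79 and 4.39 FPKM in KO cells with oxLDL, 2.12, 4.14 and 2.51 FPKM in untreated KO cells, 482, 561 and 597 FPKM in WT cells with oxLDL and 46.1, 51.0 and 53.9 FPKM in untreated WT cells. It thus rose by 3.85 ± 0.16 on the log2 scale with oxLDL in WT cells (adjusted p = 5.33e-11), while its 2 KO groups overlapped. Usp18, which strips Isg15 from proteins and blocks the interferon receptor, averaged 2.81 ± 0.506 FPKM in KO cells with oxLDL, 2.68 ± 0.333 FPKM in untreated KO cells, 138 ± 7.41 FPKM in WT cells with oxLDL and 21.1 ± 1.09 FPKM in untreated WT cells (SD, n = 3 each). Herc6, the main ligase for Isg15 in mice, went against the other genes of this group in KO cells, where its fitted change with oxLDL was below 0. It had 2.90, 2.90 and 2.73 FPKM in KO cells with oxLDL, 2.98, 3.29 and 3.24 FPKM in untreated KO cells, 55.5, 60.1 and 60.7 FPKM in WT cells with oxLDL and 15.2, 15.8 and 14.7 FPKM in untreated WT cells. That KO change of -0.16 ± 0.05 was not called (adjusted p = 0.490), while in WT cells Herc6 rose by 2.35 ± 0.05 on the log2 scale (adjusted p = 1.35e-13).

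Among the sensors, Zbp1 stood farthest below WT in both conditions. Zbp1, which binds left-handed Z-form nucleic acids and can start necroptosis, had 1.65, 1.97 and 2.41 FPKM in KO cells with oxLDL, 1.83, 2.04 and 2.45 FPKM in untreated KO cells, 214, 219 and 209 FPKM in WT cells with oxLDL and 66.7, 56.5 and 63.1 FPKM in untreated WT cells. KO cells thus held 0.939% of the WT level of Zbp1 with oxLDL and 3.39% untreated. Ifih1, which encodes the long double-stranded RNA sensor MDA5, had 3.91, 4.28 and 4.43 FPKM in KO cells with oxLDL, 4.28, 3.69 and 4.32 FPKM in untreated KO cells, 76.3, 79.7 and 81.1 FPKM in WT cells with oxLDL and 16.6, 17.2 and 16.9 FPKM in untreated WT cells. Its rise with oxLDL in WT cells, 2.63 ± 0.06 on the log2 scale (adjusted p = 1.29e-13), was the largest among the sensors. The others are Ddx58, which encodes RIG-I, Dhx58, which encodes the regulator LGP2, and Eif2ak2, which encodes the translation-blocking kinase PKR. In KO cells these 3 held 6.196 to 13.5% of their WT level with oxLDL and 17.6 to 32.0% untreated. Eif2ak2 kept the most, at 7.68 ± 0.935 FPKM in KO cells with oxLDL, 7.64 ± 0.313 FPKM in untreated KO cells, 56.9 ± 4.57 FPKM in WT cells with oxLDL and 23.9 ± 2.09 FPKM in untreated WT cells.

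The restriction factors, which block single steps of viral entry, replication or release, spread more widely than any other role group in their WT response to oxLDL. Ifitm3, which keeps viruses from fusing with endosomal membranes, was the highest member in all 4 groups and rose least in WT cells. It had 131, 138 and 126 FPKM in KO cells with oxLDL, 127, 130 and 134 FPKM in untreated KO cells, 902, 963 and 1015 FPKM in WT cells with oxLDL and 623, 611 and 633 FPKM in untreated WT cells. The 2 KO groups overlapped, and both WT groups lay well above them. Isg20, an exonuclease that degrades RNA, was among the lowest genes in untreated cells of both genotypes and rose most in WT cells. It had 0.823, 0.720 and 0.811 FPKM in KO cells with oxLDL, 0.623, 0.798 and 0.728 FPKM in untreated KO cells, 47.2, 55.6 and 58.1 FPKM in WT cells with oxLDL and 2.17, 2.25 and 2.77 FPKM in untreated WT cells. Its log2 change in WT cells was 4.88 ± 0.12 (adjusted p = 2.19e-13), while untreated KO cells stood only 1.61 ± 0.13 below untreated WT cells on that scale (adjusted p = 1.46e-07). KO cells held 1.46% of the WT level of Isg20 with oxLDL, against 29.9% untreated. As a ratio of these shares, that was the widest contrast among the 37 genes.

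Rsad2 and Cmpk2 lie next to each other on chromosome 12 and both act on nucleotides: Rsad2 encodes viperin, which makes a chain-terminating nucleotide, and Cmpk2 is a mitochondrial nucleotide kinase. Rsad2 had 6.89, 8.48 and 7.42 FPKM in KO cells with oxLDL, 6.57, 6.67 and 6.78 FPKM in untreated KO cells, 561, 652 and 694 FPKM in WT cells with oxLDL and 64.0, 65.6 and 61.6 FPKM in untreated WT cells. Cmpk2 averaged 1.90 ± 0.334 FPKM in KO cells with oxLDL, 1.58 ± 0.330 FPKM in untreated KO cells, 207 ± 17.9 FPKM in WT cells with oxLDL and 21.1 ± 0.439 FPKM in untreated WT cells (SD, n = 3 each). The pair rose in WT cells by 3.73 ± 0.08 for Rsad2 (adjusted p = 9.04e-14) and 3.70 ± 0.13 for Cmpk2 (adjusted p = 5.14e-12) on the log2 scale.

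Mx1 and Mx2 encode dynamin-like GTPases against RNA viruses, and many laboratory mouse strains carry defective alleles of both. Mx1 had 0.814, 0.825 and 0.957 FPKM in KO cells with oxLDL, 0.685, 0.688 and 0.981 FPKM in untreated KO cells, 161, 179 and 188 FPKM in WT cells with oxLDL and 15.1, 16.6 and 14.5 FPKM in untreated WT cells. With oxLDL, KO cells held 0.491% of the WT level of Mx1. Mx2 averaged 0.231 ± 0.0553 FPKM in KO cells with oxLDL, 0.177 ± 0.0730 FPKM in untreated KO cells, 21.7 ± 1.19 FPKM in WT cells with oxLDL and 2.82 ± 0.0415 FPKM in untreated WT cells. The deposited table lists no protein-coding transcript type for Mx2 and names it a polymorphic pseudogene, while Mx1 carries both types.

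Among the restriction factors, Bst2 and Samd9l rose least after Ifitm3 in WT cells. Bst2, the tether that holds budding virus particles at the cell surface, had 29.9, 29.8 and 20.6 FPKM in KO cells with oxLDL, 21.7, 24.2 and 17.3 FPKM in untreated KO cells, 236, 218 and 245 FPKM in WT cells with oxLDL and 126, 155 and 155 FPKM in untreated WT cells. Its KO groups overlapped and its interaction value, -0.75 ± 0.19 (adjusted p = 0.00605), was the nearest to 0 of the 37. Samd9l, a brake on growth and on viral translation, had 17.0, 18.5 and 17.7 FPKM in KO cells with oxLDL, 18.0, 19.0 and 20.7 FPKM in untreated KO cells, 136, 152 and 154 FPKM in WT cells with oxLDL and 60.99, 64.3 and 59.6 FPKM in untreated WT cells. It was the only restriction factor whose fitted KO change with oxLDL lay below 0, and it was not called.

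Parp9, Parp12 and Parp14 belong to the family that attaches ADP-ribose to proteins, and Dtx3l is the ubiquitin ligase that partners Parp9. This role group had the smallest median rise with oxLDL in WT cells, 1.65 on the log2 scale. Parp14, its most abundant member, had 13.9, 15.8 and 14.6 FPKM in KO cells with oxLDL, 15.1, 14.6 and 16.1 FPKM in untreated KO cells, 205, 209 and 214 FPKM in WT cells with oxLDL and 75.7, 75.5 and 73.4 FPKM in untreated WT cells. The log2 change of Parp14 in WT cells was 1.89 ± 0.05 (adjusted p = 3.44e-13), and its KO groups overlapped. Group means of Parp9, Parp12 and Dtx3l ran from 7.26 to 10.8 FPKM in KO cells with oxLDL, 7.53 to 10.4 FPKM in untreated KO cells, 54.7 to 111 FPKM in WT cells with oxLDL and 27.9 to 41.0 FPKM in untreated WT cells. Parp9 and Dtx3l overlap by 682 bases on opposite strands of chromosome 16, and without a stated strand setting reads there cannot be told apart.

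Ifi204 and Ifi203 belong to the p200 family, of which Ifi204 can bind DNA in the cytosol and nucleus. Ifi204 had 14.8, 17.7 and 16.4 FPKM in KO cells with oxLDL, 15.4, 16.8 and 16.9 FPKM in untreated KO cells, 358, 413 and 418 FPKM in WT cells with oxLDL and 86.9, 95.04 and 88.1 FPKM in untreated WT cells. Its log2 change with oxLDL in WT cells was 2.55 ± 0.07 (adjusted p = 8.55e-13). Ifi203 averaged 8.62 ± 0.372 FPKM in KO cells with oxLDL, 8.97 ± 1.05 FPKM in untreated KO cells, 144 ± 5.59 FPKM in WT cells with oxLDL and 43.7 ± 1.94 FPKM in untreated WT cells (SD, n = 3 each). For both genes the KO groups overlapped and the WT groups did not.

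The 5 remaining genes hold both ends of the range of KO against WT differences with oxLDL. Ifi44, whose protein resembles a GTPase, had 0.0718, 0.0602 and 0.148 FPKM in KO cells with oxLDL, 0.0548, 0.0448 and 0.0519 FPKM in untreated KO cells, 29.6, 31.2 and 32.1 FPKM in WT cells with oxLDL and 2.65, 3.49 and 2.74 FPKM in untreated WT cells. In counts, KO cells had 36, 30 and 73 reads with oxLDL, against 27, 23 and 25 untreated. KO replicate 3 with oxLDL thus held more reads than the other two together, and the fitted log2 change of 0.87 ± 0.32 was not called (adjusted p = 0.542). Against WT cells, Ifi44 was lower by 8.66 ± 0.19 on the log2 scale with oxLDL (adjusted p = 1.89e-14), the largest difference of the 37.

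Tor3a, an interferon-inducible torsin ATPase of the endoplasmic reticulum, kept the most of its WT level. It had 23.7, 23.5 and 24.7 FPKM in KO cells with oxLDL, 24.5, 23.6 and 22.0 FPKM in untreated KO cells, 122, 109 and 113 FPKM in WT cells with oxLDL and 46.3, 42.9 and 45.8 FPKM in untreated WT cells. That left KO cells at 20.9% of WT with oxLDL and 51.8% untreated. Rtp4, which limits replication of flaviviruses, had 3.77, 3.14 and 3.54 FPKM in KO cells with oxLDL, 3.09, 3.93 and 3.53 FPKM in untreated KO cells, 96.7, 109 and 110 FPKM in WT cells with oxLDL and 63.1, 65.0 and 65.6 FPKM in untreated WT cells. Rtp4 thus paired a small WT rise, 1.11 ± 0.08 on the log2 scale (adjusted p = 2.02e-08), with a deep untreated deficit of KO against WT, -4.09 ± 0.09 (adjusted p = 1.62e-13). Xaf1, a partner of the apoptosis inhibitor XIAP, averaged 1.36 ± 0.145 FPKM in KO cells with oxLDL, 1.30 ± 0.101 FPKM in untreated KO cells, 36.0 ± 0.915 FPKM in WT cells with oxLDL and 10.1 ± 0.472 FPKM in untreated WT cells (SD, n = 3 each). Ifi35, a leucine-zipper protein that binds Nmi, averaged 4.82 ± 0.434 FPKM in KO cells with oxLDL, 4.78 ± 0.485 FPKM in untreated KO cells, 77.0 ± 3.28 FPKM in WT cells with oxLDL and 20.8 ± 0.855 FPKM in untreated WT cells.

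**Figure D3:**
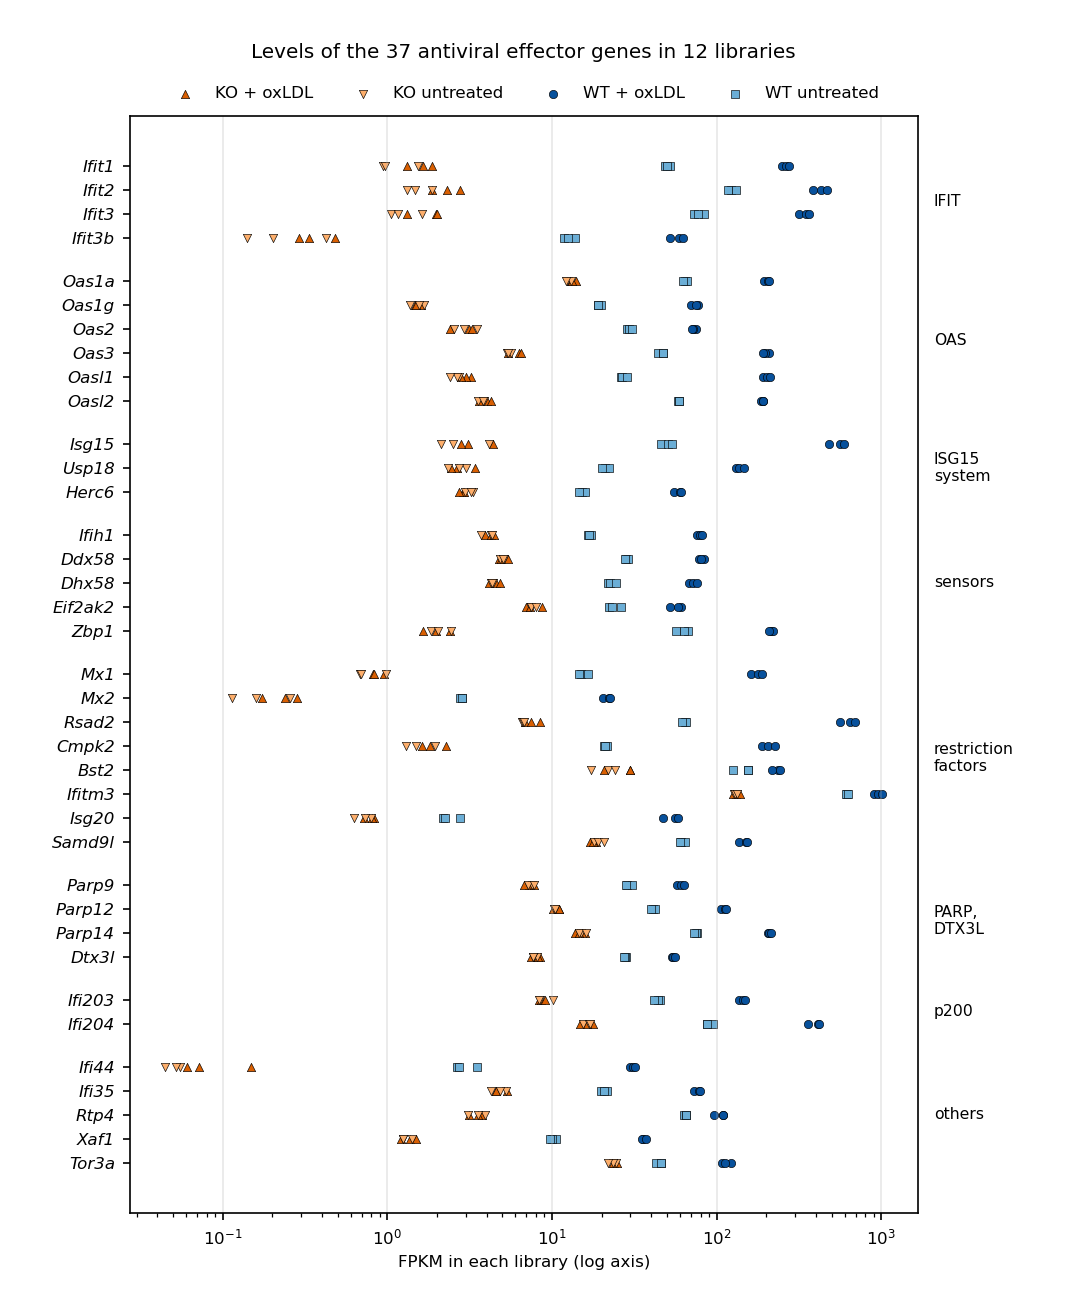
FPKM of each of the 37 genes in each of the 12 libraries, on a log axis, with genes ordered by role. For every gene the 3 WT libraries with oxLDL lie highest, the 3 untreated WT libraries next and the 6 KO libraries lowest, with the 2 KO groups intermixed for most genes.

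The order of the genes by level differed between genotypes. Ifitm3 came first in all 4 groups, with group means of 132 FPKM in KO cells with oxLDL, 130 FPKM in untreated KO cells, 960 FPKM in WT cells with oxLDL and 622 FPKM in untreated WT cells. In KO cells it was followed by Bst2 and Tor3a, whose libraries overlapped with oxLDL and untreated, and then by Samd9l, Ifi204 and Parp14. In WT cells with oxLDL the next were Rsad2, Isg15, Ifit2, Ifi204 and Ifit3, and in untreated WT cells Bst2, Ifit2, Ifi204, Ifit3 and Parp14. Rsad2 and Isg15 overlapped in WT cells with oxLDL, as did Ifit2 and Ifi204 there. At the low end, Isg20, Ifit3b, Mx2 and Ifi44 closed the order in both KO groups, and Ifi44 and Mx2 also stood among the last 4 in both WT groups. The median member stood at 3.96 FPKM in KO cells with oxLDL, 3.74 FPKM in untreated KO cells, 138 FPKM in WT cells with oxLDL and 29.5 FPKM in untreated WT cells. The members' median coefficient of variation between libraries was 8.999% in KO cells with oxLDL, 8.67% in untreated KO cells, 5.29% in WT cells with oxLDL and 4.03% in untreated WT cells.

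Genes farther below WT with oxLDL tended to be farther below WT when untreated. Across the 37 genes the 2 differences, which share no library, had a Pearson r of 0.88 and a Spearman rho of 0.87. The genes are not independent replicates and all draw on the same 12 libraries, so these values describe the list only. Isg20 stood apart from this order, with a modest untreated difference of -1.61 and a difference of -6.38 with oxLDL. On the other side, Bst2 and Ifitm3 lay closest to equal differences in both conditions.

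**Figure D4:**
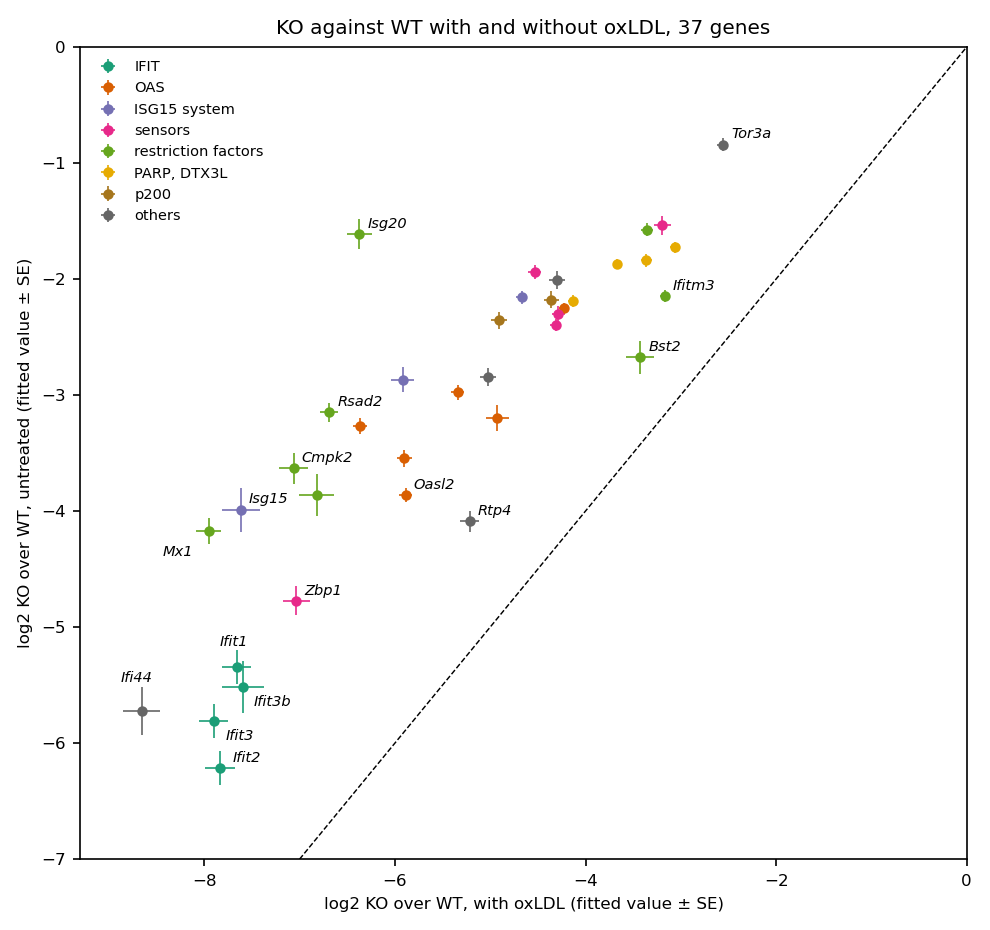
Fitted log2 difference KO over WT with oxLDL (horizontal axis) and untreated (vertical axis) for the 37 genes, coloured by role, with bars for SE. All 37 points lie left of the dashed line of equal differences, from Tor3a at -2.56 and -0.84 to Ifi44 at -8.66 and -5.72, and Isg20 lies off the trend.

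In the deposited coordinates, which match GRCm38, the 37 genes sit on 13 chromosomes, with 6 each on chromosomes 5 and 16. The 4 IFIT genes lie on the plus strand of chromosome 19, between positions 34550694 and 34650009, in the order Ifit2, Ifit3, Ifit3b and Ifit1. Ifit1bl1 lies between Ifit3 and Ifit3b, and Ifit1bl2 between Ifit3b and Ifit1. On chromosome 5, Oas2 and Oas3 span positions 120730333 to 120777661, Oas1g and Oas1a span 120876142 to 120907521, and Oasl2 and Oasl1 span 114896936 to 114937915. Rsad2 and Cmpk2, on opposite strands, span 26442746 to 26479837 on chromosome 12 with 12.8 kb between them. Of the 37 genes, 11 overlap another row of the table, mostly predicted genes with few counts, and whether counting used strand is not stated.

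The genes that make, receive and relay interferon were described from a separate list of 32 genes, of which 28 were tested and the 4 listed Ifna genes were not analysed here. With oxLDL in KO cells edgeR called 0 of 28, beside 0.0116% of all genes, and DESeq2 called 2. At an unadjusted p under 0.05 there were 8, beside 1211 of 17291 genes. In WT cells with oxLDL edgeR called 23 higher and 2 lower, beside 23.9% and 27.2% of all genes. KO against WT gave 23 lower and 2 higher with oxLDL, beside 27.4% and 30.6% of all genes. Untreated it gave 19 lower and 4 higher, beside 16.2% and 14.8% of all genes. The interaction was called below 0 for 22 and above 0 for 2, beside 19.6% and 22.1% of all genes. With library totals alone those counts were 18 and 5. This list too was chosen with earlier results known.

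Among the ligands, Ifnb1, the type I interferon that macrophages make first, was listed at 0 in all 6 KO libraries. It had 0.158, 0 and 0.169 FPKM in WT cells with oxLDL, against 0, 0.167 and 0 FPKM in untreated WT cells, and no comparison of Ifnb1 was called. Ifng, the type II interferon, had 4 reads summed over the 3 KO libraries with oxLDL and 10 over the 3 untreated KO libraries, against 4131 over the 3 WT libraries with oxLDL and 166 over the 3 untreated WT libraries. In WT cells it rose by 5.07 ± 0.33 on the log2 scale with oxLDL (adjusted p = 8.18e-09). Macrophages are not the usual source of Ifng, which natural killer and T cells make.

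Every receptor and Janus kinase on the list differed between KO and WT cells by less than the members' median in both conditions. Ifnar1 averaged 26.5 ± 1.01 FPKM in KO cells with oxLDL, 27.0 ± 0.663 FPKM in untreated KO cells, 51.7 ± 0.248 FPKM in WT cells with oxLDL and 44.4 ± 0.607 FPKM in untreated WT cells (SD, n = 3 each). Ifnar2 averaged 23.7 ± 0.533 FPKM in KO cells with oxLDL, 24.7 ± 1.13 FPKM in untreated KO cells, 62.7 ± 2.48 FPKM in WT cells with oxLDL and 37.9 ± 0.473 FPKM in untreated WT cells. Ifngr1, the ligand-binding chain for interferon-gamma, went the other way in WT cells, where it fell to 13.8 ± 0.536 FPKM with oxLDL, against 45.5 ± 1.54 FPKM untreated. In KO cells Ifngr1 stood at 39.7 ± 2.44 FPKM with oxLDL and 40.9 ± 1.13 FPKM untreated. Of the kinases, Jak2, which serves the interferon-gamma receptor, stood apart with 10.97 ± 0.137 FPKM in KO cells with oxLDL, 11.3 ± 0.779 FPKM in untreated KO cells, 167 ± 7.23 FPKM in WT cells with oxLDL and 32.0 ± 1.43 FPKM in untreated WT cells.

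Stat2 and Irf9, which act together at antiviral genes, were lower in KO cells in both conditions. Stat2 differed from WT, KO over WT on the log2 scale, by -3.65 ± 0.06 with oxLDL (adjusted p = 5.62e-16) and -2.36 ± 0.05 untreated (adjusted p = 1.62e-13). Irf9 differed from WT by -1.86 ± 0.05 with oxLDL (adjusted p = 1.05e-13) and -1.28 ± 0.05 untreated (adjusted p = 2.56e-11). Irf7, the factor that amplifies interferon production, had 4.34, 5.02 and 5.71 FPKM in KO cells with oxLDL, 3.90, 5.03 and 4.92 FPKM in untreated KO cells, 349, 366 and 381 FPKM in WT cells with oxLDL and 115, 117 and 117 FPKM in untreated WT cells. Irf1, which interferon-gamma induces, averaged 7.86 ± 0.173 FPKM in KO cells with oxLDL, 6.83 ± 0.645 FPKM in untreated KO cells, 211 ± 12.4 FPKM in WT cells with oxLDL and 86.4 ± 4.204 FPKM in untreated WT cells. Irf3, which starts interferon production without needing induction, did not follow them, at 8.75 ± 0.350 FPKM in KO cells with oxLDL, 6.61 ± 0.346 FPKM in untreated KO cells, 6.04 ± 1.04 FPKM in WT cells with oxLDL and 8.16 ± 0.704 FPKM in untreated WT cells, and was called in neither KO against WT comparison.

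The adaptors and kinases upstream of interferon were mixed. KO over WT, Mavs was 0.37 ± 0.06 higher with oxLDL on the log2 scale (adjusted p = 9.53e-05) and 0.20 ± 0.06 higher untreated (adjusted p = 0.0216). The untreated call was lost with library totals alone, at 0.09 (adjusted p = 0.288), and in 4 of the fits without 1 untreated library. Myd88, the adaptor of most Toll-like receptors, averaged 16.7 ± 0.531 FPKM in KO cells with oxLDL, 15.3 ± 1.43 FPKM in untreated KO cells, 77.4 ± 1.17 FPKM in WT cells with oxLDL and 29.9 ± 1.57 FPKM in untreated WT cells. Of this group of 8, 6 were called lower in KO than in WT cells with oxLDL, and Sting1 was not called there. All 4 feedback brakes on the list were called lower in KO cells in both conditions. Over all genes, 27.4% were called lower with oxLDL and 16.2% untreated. Socs1, which blocks Janus kinases, had 22 reads over the 3 KO libraries with oxLDL and 0 over the 3 untreated KO libraries, against 907 over the 3 WT libraries with oxLDL and 143 over the 3 untreated WT libraries. Socs3, its relative in cytokine signalling, averaged 3.03 ± 0.212 FPKM in KO cells with oxLDL, 2.70 ± 0.0521 FPKM in untreated KO cells, 147 ± 6.49 FPKM in WT cells with oxLDL and 12.4 ± 0.844 FPKM in untreated WT cells.

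**Figure D5:**
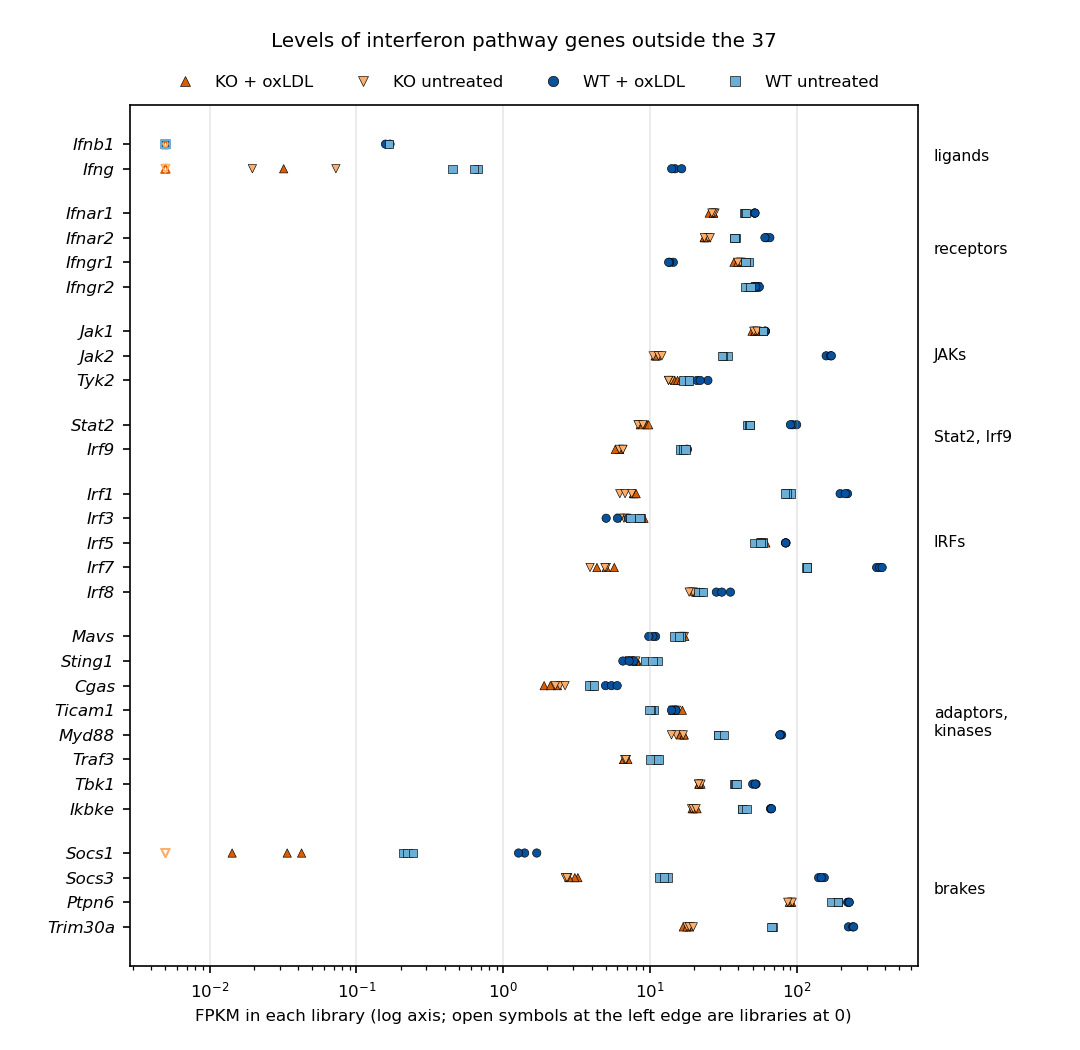
FPKM of the 28 tested interferon pathway genes outside the 37, in each of the 12 libraries on a log axis, by role, with libraries at 0 drawn as open symbols at the left edge. Ifng, Irf7 and Socs3 are separated by genotype in the same order as the 37 genes, while Ifngr2, Jak1, Irf3 and Mavs lie close together.

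Markers of other cells also differed with genotype, in both directions. Of 5 natural killer cell markers, Ncr1, Gzma, Eomes and Klra8 were at 0 in all 6 KO libraries. Klrb1c went the other way, with 26 reads in KO and 8 in WT cells with oxLDL, and 24 and 12 untreated. The list summed to 0.0167 to 0.0582 FPKM in KO cells with oxLDL and 0 to 0.0828 FPKM in untreated KO cells. In WT cells it summed to 0.850 to 1.49 FPKM with oxLDL and 1.09 to 1.89 FPKM untreated. Of the 8 T cell markers, Cd3e and Trac were at 0 in all KO libraries. Cd3g, Cd8a, Lck and Thy1 were also lower in KO cells, in both conditions. Cd4 averaged 0.625 FPKM in KO and 0.658 FPKM in WT cells with oxLDL, and 0.551 and 2.08 FPKM untreated. Cd3d had 9 reads in KO and 5 in WT cells with oxLDL, and 4 and 4 untreated. The T cell list summed to 0.784 to 0.906 FPKM in KO cells with oxLDL and 0.811 to 0.895 FPKM in untreated KO cells. In WT cells it summed to 2.18 to 2.82 FPKM with oxLDL and 3.53 to 3.61 FPKM untreated. Most of the sum was Cd4, Lck and Thy1. Monocyte or small peritoneal macrophage markers summed to 2.57 to 3.27 FPKM in KO cells with oxLDL, 2.67 to 2.88 FPKM in untreated KO cells, 41.9 to 45.6 FPKM in WT cells with oxLDL and 21.6 to 23.7 FPKM in untreated WT cells. Ly6c2 made up most of the sum in WT cells and was lower in KO cells, while Ccr2 and Irf4 stood higher in KO cells, with Ccr2 at 394% of the WT mean with oxLDL and 198% untreated. The neutrophil list summed to 32.3 to 38.2 FPKM in KO cells with oxLDL and 34.9 to 36.4 FPKM in untreated KO cells. In WT cells it summed to 139 to 146 FPKM with oxLDL and 61.6 to 66.4 FPKM untreated. Most of it was Csf3r in every group. S100a9, Ly6g and Retnlg were at 0 in all KO libraries but hardly present in WT cells either. They had 7, 4 and 0 reads over the 3 WT libraries with oxLDL, and 3, 0 and 8 over the 3 untreated ones. The B cell list summed to 7.27 to 7.87 FPKM in KO cells with oxLDL, 6.98 to 9.38 FPKM in untreated KO cells, 20.2 to 26.7 FPKM in WT cells with oxLDL and 21.2 to 26.0 FPKM in untreated WT cells, most of it Ighm, while Cd79b stood at 436% of the WT mean in KO cells with oxLDL and 176% untreated. The 7 macrophage markers did not move together. The macrophage marker Adgre1 had 149 to 157 FPKM in KO cells with oxLDL and 157 to 159 FPKM in untreated KO cells, against 749 to 776 FPKM in WT cells with oxLDL and 533 to 564 FPKM in untreated WT cells. As a share of the WT mean, KO cells held 146% of Cd68 with oxLDL and 123% untreated, 97.8% of Csf1r with oxLDL and 48.1% untreated, and 90.5% of Itgam with oxLDL and 76.7% untreated. With oxLDL, the plasmacytoid dendritic cell list summed to 0.470 to 1.12 FPKM in KO cells and 0.809 to 0.963 FPKM in WT cells. Untreated, it summed to 0.665 to 1.03 FPKM in KO cells and 0.351 to 0.484 FPKM in WT cells. On that list, untreated Ly6d averaged 0.330 FPKM in KO and 0.0217 FPKM in WT cells, and Spib 0.442 and 0.308 FPKM. Ccr9 went the other way, with KO cells at 26.6% of the WT mean untreated and 11.5% with oxLDL. Siglech had at most 17 reads summed over any group. The conventional dendritic cell list overlapped between genotypes untreated. With oxLDL it was 0.208 to 0.329 FPKM in KO cells and 0.0830 to 0.205 FPKM in WT cells. The mast cell and mesothelial or fibroblast lists summed lower in KO cells. Col1a1, Col1a2, Col3a1, Dcn and Pdgfra made up most of the latter sum. These had lower KO means untreated, but Col1a2 and Col3a1 had higher KO means with oxLDL. The mesothelial genes were low and mixed. Upk3b stood at 149% of the WT mean in KO cells with oxLDL and 176% untreated. Krt19 stood at 73.2% with oxLDL and 170% untreated. Msln averaged 0.127 FPKM in KO and 0.102 FPKM in WT cells with oxLDL, and 0.137 and 0.151 FPKM untreated. Adipocyte markers reached at most 0.101 FPKM in any library. What part these marker differences have in the levels of the 37 genes was not tested.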

How the data were processed

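RNA-seq of 12 libraries was analysed from a deposited table of 27294 genes. It holds the authors' raw read counts and FPKM values for every library, per the file headers. The submitters' processing notes name HISAT2 2.0, Bowtie 0.12.2 and build mm8. The counting tool, its annotation and its use of strand were not given in the sources used here. The deposited coordinates overlapped GRCm38 positions for 99.9% of 21990 genes matched by Entrez identifier, so they are given as GRCm38.

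The counts were tested with edgeR 4.0.16 (R 4.3.3) by its quasi-likelihood test, with TMM scaling, the filterByExpr filter (17291 genes kept), all 4 groups in 1 fit and no block. Benjamini-Hochberg adjustment ran over all genes tested, with calls at an adjusted p under 0.05. SE was taken from the test statistic. FPKM was averaged as deposited, without TMM, so FPKM ratios need not equal fitted folds. The test was tried on simulated data with known changes. Alternatives used DESeq2 1.42.0, limma 3.58.1 on log2(FPKM + 1) or log2(FPKM + 0.1) with genes kept at 1 FPKM in 3 libraries, other scaling, no filter, a replicate block, only the groups compared, and each library left out. An exact permutation test of 3 against 3 libraries cannot go below p = 0.1, so none was run on single values.

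The 37 genes, their role groups, the pathway list and the marker lists were chosen with earlier results of these data known, so no set test was made. All 37 are named. In each role group the gene with the highest mean FPKM and the one with the largest interaction have values in every library, as do genes whose direction goes against their group; others are summarised. The pathway genes named in the text were chosen after their values were seen. Mb21d1 and Tmem173 were found in the table under the symbols Cgas and Sting1. No pair of libraries was identical. No label says whether equal replicate numbers mark a shared animal or culture. A gene of the planned pathway list is not reported here.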

Additional observations from a re-analysis of the deposited data

Results flagged for a closer look

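The oxLDL change differed between KO and WT cells, by a test of the difference itself, for each of the 37 genes. The values are the log2 change with oxLDL in KO cells minus that in WT cells, with SE, from edgeR (quasi-likelihood fit, p-values adjusted by Benjamini-Hochberg over 17291 genes). A value below 0 means that the rise with oxLDL was smaller in KO than in WT cells. Among the IFIT genes the interaction was -2.32 ± 0.19 for Ifit1, -1.62 ± 0.18 for Ifit2, -2.09 ± 0.20 for Ifit3 and -2.07 ± 0.35 for Ifit3b. Among the OAS genes the interaction was -1.97 ± 0.07 for Oas1a, -2.36 ± 0.10 for Oas1g, -1.73 ± 0.15 for Oas2, -2.36 ± 0.08 for Oas3, -3.10 ± 0.09 for Oasl1 and -2.02 ± 0.08 for Oasl2. Among the ISG15 system the interaction was -3.63 ± 0.27 for Isg15, -3.05 ± 0.15 for Usp18 and -2.51 ± 0.08 for Herc6. Among the sensors the interaction was -2.60 ± 0.08 for Ifih1, -1.92 ± 0.07 for Ddx58, -1.99 ± 0.09 for Dhx58, -1.66 ± 0.12 for Eif2ak2 and -2.26 ± 0.16 for Zbp1. Among the restriction factors the interaction was -3.78 ± 0.16 for Mx1, -2.96 ± 0.27 for Mx2, -3.54 ± 0.11 for Rsad2, -3.43 ± 0.18 for Cmpk2, -0.75 ± 0.19 for Bst2, -1.02 ± 0.07 for Ifitm3, -4.76 ± 0.18 for Isg20 and -1.78 ± 0.08 for Samd9l. Among the PARP genes and Dtx3l the interaction was -1.52 ± 0.08 for Parp9, -1.79 ± 0.06 for Parp12, -1.94 ± 0.07 for Parp14 and -1.34 ± 0.07 for Dtx3l. Among the p200 genes the interaction was -2.18 ± 0.10 for Ifi203 and -2.55 ± 0.10 for Ifi204. Among the remaining genes the interaction was -2.94 ± 0.38 for Ifi44, -2.29 ± 0.11 for Ifi35, -1.13 ± 0.12 for Rtp4, -2.18 ± 0.11 for Xaf1 and -1.72 ± 0.08 for Tor3a. The adjusted p was 0.00605 for Bst2, the highest of the 37, and 5.19e-12 for Oasl1, the lowest. The interaction was called in either direction for 41.7% of all genes tested.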

How the results depend on the processing

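Counts of members called stayed at 37, 37, 37 and 37 of 37 (oxLDL in WT, KO against WT with oxLDL and untreated, interaction) and 0 of 37 (oxLDL in KO) under every alternative run, except that the interaction of Bst2 was lost with library totals alone (-0.33, adjusted p = 0.171), limma on log2(FPKM + 1) (-0.36, adjusted p = 0.155) and log2(FPKM + 0.1) (-0.35, adjusted p = 0.178). No called value of a member changed sign.

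The number of all genes called for oxLDL in KO, 2, depended on the setting: 110 with DESeq2, 61 with only the groups compared, 1 without the filter, 0 with either limma fit and 0 with the replicate block. It ran from 0 to 57 with 1 library left out, at 57 without WT oxLDL replicate 1, 7 without WT oxLDL replicate 2 and 6 without untreated WT replicate 2. Of the 28 pathway genes, 0 were called for oxLDL in KO, against 2 with DESeq2, 1 with only the groups compared and 0 to 1 with 1 library left out (1 without KO oxLDL replicate 2 and without WT oxLDL replicate 1). These pathway alternatives, and those for Wee1 and the pathway genes given with fitted values, were chosen after seeing the data. The causes were not tested.

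Library totals alone moved the members' median log2 value to 1.83 for oxLDL in WT, -4.72 for KO against WT with oxLDL, -2.95 untreated and -1.77 for the interaction. With limma on log2(FPKM + 1) these were 1.77, -4.23, -2.29 and -1.82, and a pseudocount shrinks the difference of genes with low FPKM. With log2(FPKM + 0.1) they were 1.82, -4.64 and -1.76, with the untreated one moving by less than the spread. Leaving out single libraries gave -5.10 to -4.95 for KO against WT with oxLDL and -2.22 to -2.05 for the interaction. With library totals alone the median of all genes was -0.46 for oxLDL in WT, 0.36 for KO against WT with oxLDL, -0.12 untreated and 0.49 for the interaction. With TMM these medians were -0.06, 0.05, -0.01 and 0.08. About the distance between the 2 medians in each comparison is the part of a fitted value that rests on scaling.

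Libraries with the same replicate number did not deviate together (correlations of -0.14 to 0.04), so the replicate block was only an alternative. With the replicate block 37, 37, 37 and 37 members were called, and 0 for oxLDL in KO, with medians of 2.24, -5.03, -2.85, -2.17 and 0.06. The planned description of promoter motifs was not run, since no promoter sequence was used here. Depth limits the KO values of the genes with few reads, and SE with oxLDL in KO was largest for Ifi44 and Ifit3b.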
